A study of Homo sapiens with 6 samples.

Results

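The genes described here are 10 members of the BCL2 family, chosen by symbol from the 28008 genes of the count table: the survival genes BCL2, BCL2L1, BCL2L2 and MCL1, the effector gene BAK1, and the BH3-only genes BCL2L11, BID, BAD, BIK and BMF. The rule names symbols outside the p53 targets, so the p53 targets BAX, BBC3 and PMAIP1 are not members. It names no measured value, but the symbols were chosen with earlier results of these data known. All 10 had a row in the table and passed the filter on low counts. Bulk mRNA was measured in DU-145-DR/tet-MUC1shRNA cells, a human prostate carcinoma line selected for resistance to docetaxel (DTX) and carrying a hairpin against MUC1 that doxycycline (DOX) induces. DOX-negative cells (3 libraries) received vehicle and DOX-positive cells (3 libraries) received DOX, so both groups share the cell line, the DTX resistance and, as the study describes it, the hairpin. In GEO's treatment labels the hairpin appears solely on DOX-positive samples. DOX was given for 7 days. DOX itself and MUC1-C silencing cannot be told apart, since DOX-treated cells with a control hairpin are not analysed here.

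The BCL2 family decides whether the outer mitochondrial membrane is opened during apoptosis. Survival proteins hold the effectors BAX and BAK in check, and BH3-only proteins relay stress by occupying the survival proteins or, for some of them, by engaging the effectors directly. Once the membrane opens, cytochrome c leaves the mitochondrion and caspases are activated. BCL-XL, encoded by BCL2L1, and MCL1 are well known survival proteins of solid tumor cells, and BCL2L11 (BIM), BID and BMF are among the BH3-only proteins known to act in cells exposed to microtubule drugs or to loss of attachment and death receptor signals.

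Library totals ran from 15092691 to 23243713 counts. A count of 3, taken as the floor of detection, corresponded to between 0.129 and 0.199 CPM (read counts scaled to a common library size), and this floor covers counting error only. MUC1 was at 21.3, 24.8 and 19.7 CPM in the DOX-negative libraries and at 3.27, 3.87 and 4.44 CPM in the DOX-positive libraries, which is 5.75-fold lower with DOX (log2 fold change -2.52, SE 0.146, edgeR adjusted p = 4.47e-11). The epithelial markers KRT8, KRT18 and EPCAM were present in all 6 libraries and were higher with DOX, by 0.84, 0.81 and 1.43 on the log2 scale, whereas VIM changed by 0.03 and did not pass the test. KLK3 was listed at 0 counts in all libraries. The leukocyte marker PTPRC, the endothelial marker PECAM1 and the hepatocyte marker ALB had at most 7 counts in any library. The part of the shift in epithelial markers in the values of the BCL2 family was not tested.

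With DOX, 2 of the 10 BCL2 family members rose, BMF and BIK, 0 fell and 8 did not pass the test (edgeR quasi-likelihood test, adjusted p under 0.05 over all 14292 genes tested). Both genes that rose encode BH3-only proteins. Across the transcriptome 26.7% of tested genes were called, 13% higher and 13.7% lower, so the share of members called (20%) was near the background. DESeq2 called 1 member higher and 0 lower. The median log2 fold change of the members was 0.14, compared with -0.0034 over all genes tested. None of the 4 survival genes passed the test by edgeR or by DESeq2, and 0 of them had an unadjusted p under 0.05. Libraries of both groups did not overlap in CPM for 5 of the 10 members, namely BCL2L1, BCL2L11, BID, BIK and BMF, while 39.8% of all tested genes had groups that did not overlap.

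Levels were compared between genes with TPM, which corrects for transcript length, after the TPM were rescaled without 5 short noncoding RNAs that held between 34.4% and 64.4% of the deposited TPM. MCL1 was the most abundant member in both groups, at 430 ± 29.1 TPM (SD, n = 3) without DOX and 460 ± 28.5 with DOX. BCL2L1 came next at 256 ± 11.4 and 231 ± 7.23 TPM. By mean CPM, MCL1 lay above 98.9% and BCL2L1 above 95.6% of the tested genes. BID and BAD were the leading BH3-only transcripts among the members, at 67.3 and 38.5 TPM without DOX. BAK1 followed at 18.4 TPM, then BCL2L2 at 14.3 and BCL2L11 at 11.4 TPM, whose DOX-negative libraries overlapped. BIK (5.54 TPM), BMF (3.17 TPM) and BCL2 (0.957 TPM) were the lowest. With DOX the order of the means stayed as it was, but BIK at 9.48 TPM now overlapped BCL2L11 at 9.60 TPM. In each group every other pair of neighbors in this order was separated in all libraries.

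**Figure D1:**
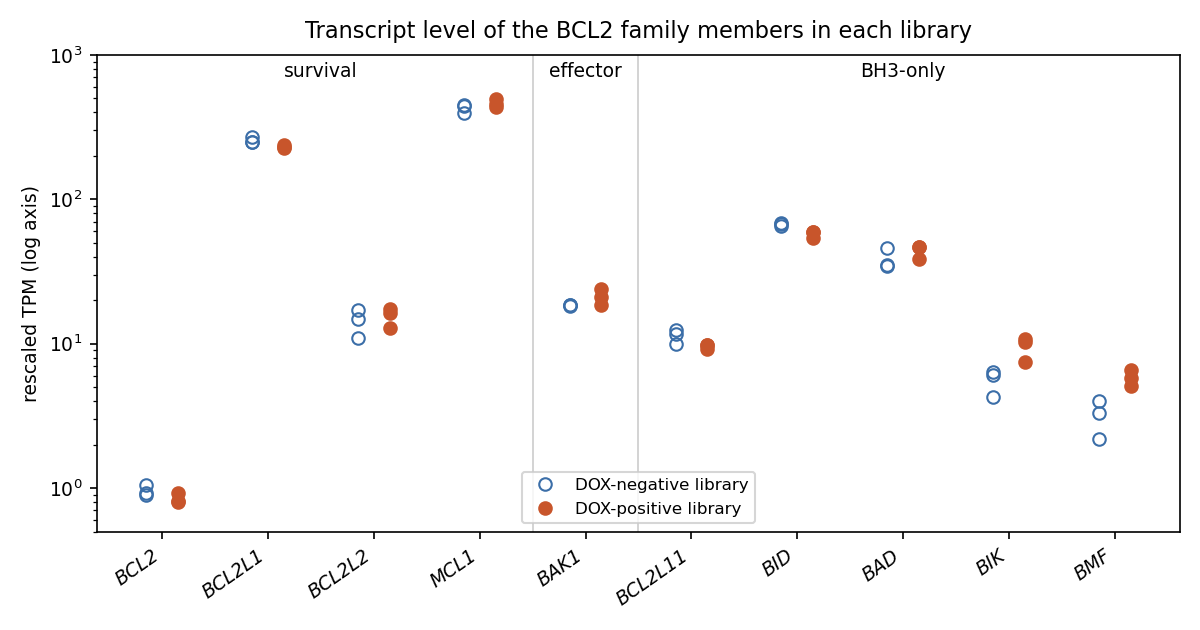
Rescaled TPM (log axis) of the 10 members in each of the 6 libraries, open circles for DOX-negative and filled circles for DOX-positive. MCL1 and BCL2L1 sit at the top, from 225 to 492 TPM, and BCL2 near 1 TPM, while the filled circles of BIK and BMF lie above their open circles.

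Among the survival genes, BCL2L1 (chr20:31664452-31723989, minus strand, GRCh38) encodes BCL-XL and its short, death-promoting splice form, which gene counts do not separate. Its level was 297, 315 and 306 CPM in the DOX-negative libraries and 279, 289 and 278 CPM in the DOX-positive libraries. All 3 DOX-positive libraries lay below all 3 DOX-negative libraries, but the log2 fold change of -0.12 (SE 0.059) did not pass the test (edgeR adjusted p = 0.145). The 95% interval of this change ran from -0.24 to 0.0038. Exons of the antisense gene ABALON share 1424 bases with BCL2L1, and its counts ran from 5 to 24 a library.

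MCL1 (chr1:150574551-150579738, minus strand) encodes a short-lived survival protein that is bound by PMAIP1 (NOXA) and removed by the proteasome. It was at 647, 654 and 604 CPM without DOX and at 693, 650 and 733 CPM with DOX. The highest DOX-negative library exceeded the lowest DOX-positive library, so the groups overlapped. The log2 fold change was 0.12 (SE 0.064, edgeR adjusted p = 0.162), with a 95% interval from -0.0091 to 0.26.

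BCL2 itself (chr18:63123346-63320128, minus strand), the founding survival gene of the family, was barely expressed, with 47, 42 and 47 counts without DOX and 47, 44 and 30 counts with DOX. These counts gave overlapping levels of 2.59, 2.15 and 2.34 CPM and of 2.05, 2.30 and 2.02 CPM. At this depth the 95% interval of its log2 fold change ran from -0.67 to 0.38, so a change of moderate size in either direction was not detectable (-0.15, SE 0.253, edgeR adjusted p = 0.713). BCL2L2 (chr14:23298790-23311759, plus strand), which encodes the survival protein BCL-W, was at 19.3, 21.9 and 14.7 CPM without DOX and 22.0, 17.0 and 23.1 CPM with DOX. The spread within each group exceeded the difference between them (log2 fold change 0.15, SE 0.135, edgeR adjusted p = 0.458). The readthrough gene BCL2L2-PABPN1, which shares 813 exon bases on the same strand, was listed at 0 counts in all libraries.

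The effector BAK1 (chr6:33572547-33580293, minus strand) encodes the pore-forming protein BAK. It was at 13.6, 13.2 and 14.1 CPM in the DOX-negative libraries and at 16.2, 13.8 and 18.0 CPM in the DOX-positive libraries. DOX-positive replicate 2 fell within the DOX-negative range and the other DOX-positive libraries lay above it. The log2 fold change was 0.22 (SE 0.120) and did not pass the test (edgeR adjusted p = 0.181). GENCODE lists the pseudogenes BAK1P1 and BAK1P2, so reads shared with them make this value less certain. GGNBP1 shares 91 exon bases with BAK1 on the opposite strand.

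BMF (chr15:40087890-40108892, minus strand) encodes a BH3-only protein that is tethered to myosin motors and released upon detachment. It was at 6.99, 5.63 and 3.93 CPM without DOX and at 11.9, 8.93 and 10.2 CPM with DOX, from 79 to 272 counts a library. Every DOX-positive library was above every DOX-negative library, and the DOX-negative libraries themselves spanned a wide range, with replicate 3 lowest. BMF rose 1.88-fold (log2 fold change 0.91, SE 0.180, edgeR adjusted p = 0.000611). The call held with each library left out in turn, with log2 fold changes from 0.72 to 1.11 and adjusted p from 0.000219 to 0.00609. The antisense gene BMF-AS1, not analysed here, shares 461 exon bases with BMF, and whether counting used strand is not given in the sources used here, so reads of this pair cannot be told apart.

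BIK (chr22:43110748-43129712, plus strand) encodes a BH3-only protein of the endoplasmic reticulum that binds BCL2 and BCL-XL. Its counts were 20, 30 and 34 without DOX and 63, 54 and 29 with DOX. In CPM these were 1.10, 1.53 and 1.69 against 2.75, 2.82 and 1.95, so the groups did not overlap although DOX-positive replicate 3 came close to the DOX-negative range. BIK rose 1.74-fold (log2 fold change 0.80, SE 0.285, edgeR adjusted p = 0.0407). This call depended on the settings and was lost with DESeq2 (adjusted p = 0.0594), with total counts as library sizes (0.0514), and on leaving out the first (0.165) or second (0.0769) DOX-negative library, or the first (0.131) or second (0.104) DOX-positive library.

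The other BH3-only members did not pass the test. BID (chr22:17734138-17774770, minus strand), which links death receptors to the mitochondrion once caspase-8 cleaves it, was at 61.5, 59.5 and 65.5 CPM without DOX and 57.0, 50.4 and 55.5 CPM with DOX. All DOX-positive libraries were below all DOX-negative libraries, and the log2 fold change was -0.20 (SE 0.078, edgeR adjusted p = 0.0678). BID passed the threshold under 2 settings, total counts as library sizes (adjusted p = 0.0297) and limma on rescaled TPM (adjusted p = 0.0362). BCL2L11 (chr2:111119378-111168447, plus strand), which encodes the broadly binding BH3-only protein BIM, was at 28.5, 26.5 and 23.4 CPM without DOX and 21.9, 22.7 and 22.9 CPM with DOX. Its groups were separated by a narrow gap and its log2 fold change of -0.22 (SE 0.099) missed the threshold (edgeR adjusted p = 0.110). The opposite-strand gene MIR4435-2HG shares 727 exon bases with BCL2L11, was at 61.5 to 64.0 CPM without DOX and 52.0 to 54.2 CPM with DOX, and fell by 0.25 on the log2 scale (edgeR adjusted p = 0.0162). Its part in the BCL2L11 value was not tested. BAD (chr11:64269830-64284704, minus strand), whose protein is held inactive by survival kinases, was at 12.6, 16.5 and 13.1 CPM without DOX and 17.6, 14.2 and 17.1 CPM with DOX. Each group of BAD values held a library inside the range of the other (log2 fold change 0.21, SE 0.128, edgeR adjusted p = 0.232), and GPR137 shares 404 exon bases with it on the opposite strand.

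The sequences upstream of BMF and BCL2L11 are given because they are BH3-only genes known as targets of FOXO transcription factors, and FOXO3 was among the genes followed. FOXO3 was at 49.7, 50.4 and 49.3 CPM without DOX and 77.8, 74.6 and 77.9 CPM with DOX, and it rose (log2 fold change 0.62, SE 0.072, edgeR adjusted p = 1.13e-06), while FOXO1 changed by -0.083 and did not pass the test. RefSeq promoters (GRCh38.p14, 250 bases before to 50 after a start) were at hand for 7 of the 10 members, and each was searched on both strands for the E-box CACGTG, the FOXO element GTAAACA and the GC box GGGCGG. In the sequences, written 5′ to 3′ on the strand of the gene, capitals mark every match, with CCGCCC being a GC box on the other strand. The first is chr15:40108830-40109129 on the minus strand and the other is chr2:111120664-111120963 on the plus strand.
BMF: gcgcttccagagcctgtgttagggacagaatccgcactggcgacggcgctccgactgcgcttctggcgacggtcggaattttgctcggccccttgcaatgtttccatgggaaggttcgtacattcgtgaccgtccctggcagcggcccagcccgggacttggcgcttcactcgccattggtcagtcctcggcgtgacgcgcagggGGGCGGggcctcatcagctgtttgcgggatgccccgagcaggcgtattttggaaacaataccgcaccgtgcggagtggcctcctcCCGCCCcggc
BCL2L11: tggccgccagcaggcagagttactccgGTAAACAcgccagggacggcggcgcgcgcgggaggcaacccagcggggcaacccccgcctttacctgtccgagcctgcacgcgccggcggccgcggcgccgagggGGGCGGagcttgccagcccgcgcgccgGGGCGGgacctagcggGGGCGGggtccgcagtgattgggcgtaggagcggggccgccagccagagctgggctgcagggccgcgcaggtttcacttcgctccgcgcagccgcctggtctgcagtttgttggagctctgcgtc
The BCL2L11 window held 1 FOXO element and 3 GC boxes. The BMF window printed above held 2 GC boxes and neither an E-box nor a FOXO element. A window at another BMF start, chr15:40106917-40107216 on the minus strand, held no match to any of these motifs. Of the members searched, only BID held the E-box, the same site in overlapping windows, at -106 and -47 relative to their starts. Among all 35116 promoters of this length, 3.42% held the FOXO element, 7.26% the E-box and 45% the GC box. A match describes the letters in this window only. Binding of FOXO proteins was not measured.

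**Figure D2:**
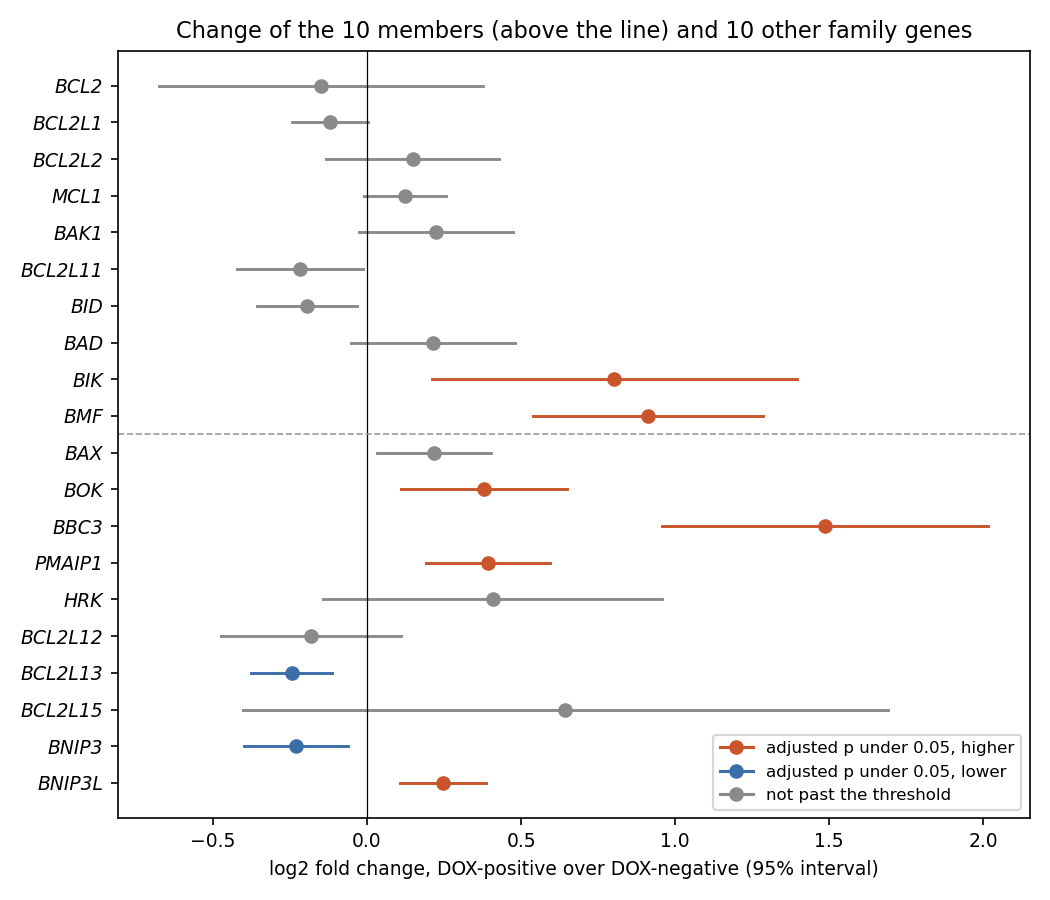
Log2 fold change of DOX-positive over DOX-negative libraries (points) with 95% intervals (bars) from edgeR for the 10 members and 10 other tested family genes, colored by call. BMF and BIK lie to the right of the other members, and BBC3 (1.49) has the largest value shown.

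The balance between survival and BH3-only transcripts was described as the ratio of summed rescaled TPM in each library, with no test, because the members were chosen with results known. The 4 survival genes summed to 707, 739 and 657 TPM without DOX and to 696, 689 and 740 TPM with DOX. The 5 BH3-only genes summed to 122, 133 and 122 TPM without DOX and to 132, 118 and 129 TPM with DOX. Neither sum separated the groups. The ratio was 5.77, 5.56 and 5.38 without DOX (mean 5.57 ± 0.196, SD, n = 3) and 5.25, 5.84 and 5.73 with DOX (mean 5.61 ± 0.310). The groups overlapped, and their mean log2 ratios differed by 0.0088.

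Some parts of each sum moved more than the sums did. MCL1 and BCL2L1 together held 97.8% of the survival TPM without DOX and 97.7% with DOX. Within that, the ratio of MCL1 to BCL2L1 was 1.77, 1.68 and 1.60 without DOX and 2.02, 1.82 and 2.14 with DOX. The 3 DOX-positive ratios were all above the 3 DOX-negative ratios, a difference of 0.24 on the log2 scale that was chosen for description after its values were seen. Among the BH3-only genes, BID held 54.8%, 49.5% and 56.5% of the TPM without DOX and 45.1%, 45.8% and 46.1% with DOX. BIK and BMF together held 6.78%, 7.02% and 6.97% without DOX and 12.7%, 13.4% and 10.2% with DOX. Neither of these shares overlapped between groups, and the BIK and BMF share stayed below that of BID. BIK and BMF are the members called higher in these same data, so the rise of their pooled share restates those calls. These ratios compare transcripts within a library and say nothing of protein amounts.

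**Figure D3:**
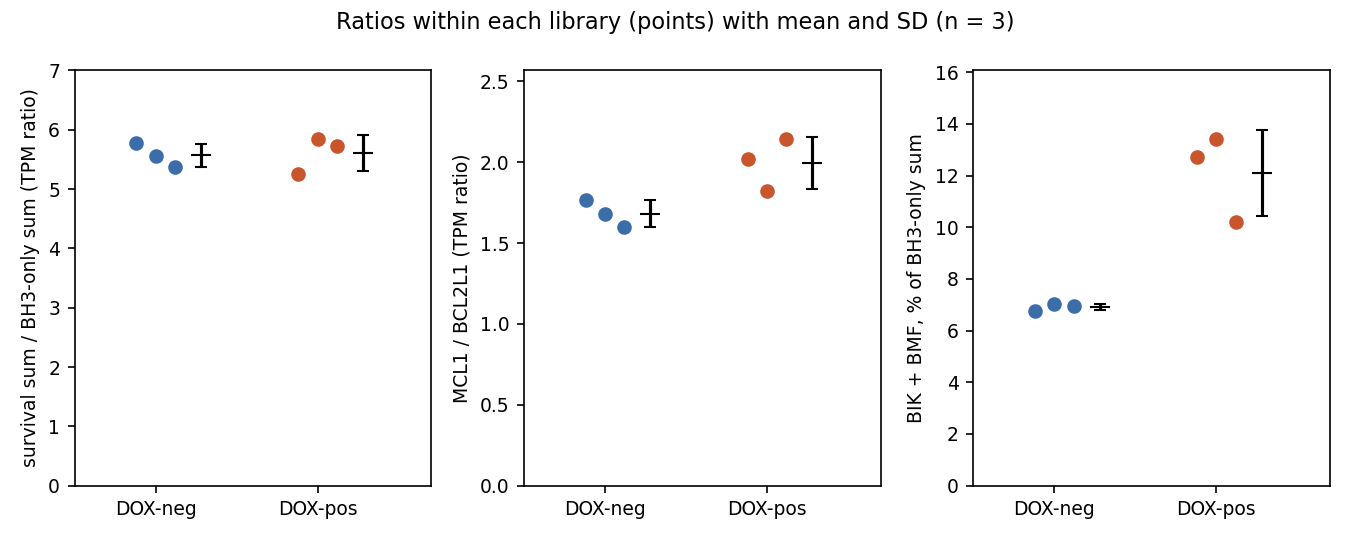
Ratio of summed survival to summed BH3-only TPM (left), ratio of MCL1 to BCL2L1 TPM (middle) and percent of BH3-only TPM from BIK and BMF (right) in each library, with the mean and SD (n = 3). The left ratio overlaps between groups, at 5.57 and 5.61, while the DOX-positive points of the other panels lie above all DOX-negative points. BIK and BMF are the members called higher in these same data, so the right panel restates those calls.

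Another 13 family genes were followed, of which 10 had enough counts to be tested, and by edgeR 4 of these rose and 2 fell (60%, beside 26.7% over all genes). The BH3-only genes BBC3 (PUMA) and PMAIP1 (NOXA), both known p53 targets, were among those that rose. BBC3 was at 1.65, 1.07 and 1.34 CPM without DOX and 3.97, 3.66 and 3.77 CPM with DOX (log2 fold change 1.49, SE 0.255, edgeR adjusted p = 0.000157). Its DOX-negative values rest on 30, 21 and 27 counts. PMAIP1 was at 54.6, 47.6 and 41.9 CPM without DOX and 60.8, 57.0 and 71.5 CPM with DOX (log2 fold change 0.39, SE 0.097, edgeR adjusted p = 0.00431). Neither gene overlapped between groups. PMAIP1 had a mean of 75.0 TPM without DOX, in a range from 63.5 to 85.7 TPM that overlapped BID, and of 96.7 TPM with DOX, where it exceeded all 5 BH3-only members in every library. When BBC3, PMAIP1 and the neuronal BH3-only gene HRK were added to the BH3-only sum, the ratio of survival to BH3-only TPM was 3.34, 3.50 and 3.49 without DOX and 3.02, 3.24 and 3.01 with DOX. That wider ratio, chosen after values were seen, was lower in every DOX-positive library than in every DOX-negative library. BBC3 and PMAIP1 are genes called higher in these same data, so the fall of this ratio restates those calls. BCL2A1 and BCL2L10 were not added to the survival side.

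The effector BAX, also a p53 target, was at 30.0, 28.7 and 33.6 CPM without DOX and 37.0, 34.8 and 35.4 CPM with DOX. Its groups did not overlap, but its log2 fold change of 0.22 (SE 0.089) did not pass the test (edgeR adjusted p = 0.0770). BAX did pass the threshold without DOX-negative replicate 3 (edgeR adjusted p = 0.0416) and with limma on rescaled TPM (adjusted p = 0.0473). The ratio of BAX to BAK1 TPM was 4.21 ± 0.205 without DOX and 4.23 ± 0.522 with DOX (SD, n = 3). BOK, the third effector, rose by 0.38 on the log2 scale (edgeR adjusted p = 0.0342), a call that was lost when DOX-negative replicate 1 or 3 or DOX-positive replicate 1 or 3 was left out (adjusted p from 0.0689 to 0.121), with total counts as library sizes (0.0596) and with limma on rescaled TPM (0.0668). BOK and BNIP3L changed sign when TPM as deposited were tested. On the opposite strand, BOK-AS1 shares 201 exon bases with BOK and PNMA2 shares 330 with BNIP3L. The part of these overlaps in the values was not tested. The mitophagy receptor BNIP3L rose by 0.25 (edgeR adjusted p = 0.00866), while its relative BNIP3 fell by 0.23 (edgeR adjusted p = 0.0405) and the mitochondrial protein gene BCL2L13 fell by 0.24 (edgeR adjusted p = 0.00569). GENCODE names 39 pseudogenes of BNIP3, which makes its counts uncertain, and its call was lost without the first (adjusted p = 0.0567) or the third (0.179) DOX-negative library, or without the second DOX-positive library (0.180). HRK, BCL2L12 and BCL2L15 changed by 0.41, -0.18 and 0.64 and did not pass the test.

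The 3 family genes not tested were near the floor. BCL2A1, an NF-kB-driven survival gene, had 3, 0 and 2 counts without DOX and 12, 14 and 13 counts with DOX. All DOX-positive libraries were higher, but at most 14 counts stand behind a value. With no filter, BCL2A1 passed the test (log2 fold change 2.92, edgeR adjusted p = 0.00226). Some fits with a library left out also kept this gene. It met their filter only through its DOX-positive counts, so those fits add no support. BCL2L10 had between 0 and 12 counts, and BCL2L14 was listed at 0 in all libraries.

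Genes around the family were followed in 4 lists, whose counts stand beside the 26.7% called over all genes. Downstream of the mitochondrion, 1 of 7 caspase and apoptosome genes fell and 0 rose (DESeq2 called the same numbers, and 1 had an unadjusted p under 0.05), with a list median of -0.025 on the log2 scale. CYCS, which encodes cytochrome c and was the most abundant of the list by mean rescaled TPM (189 without DOX and 156 with DOX), was at 402, 354 and 404 CPM without DOX and 327, 312 and 332 CPM with DOX. Its groups did not overlap, and it fell by 0.26 on the log2 scale (edgeR adjusted p = 0.00515). CASP8, CASP9 and APAF1 changed by -0.041, 0.040 and 0.20 and did not pass the test. Among 7 inhibitor of apoptosis genes and their antagonists, 3 rose and 1 fell, with a median of 0.14. XIAP, a direct caspase inhibitor, rose by 0.38 (edgeR adjusted p = 0.00027), BIRC5 (survivin) by 0.34 (edgeR adjusted p = 0.00145) and BIRC2 by 0.19 (edgeR adjusted p = 0.0401), and all 3 changed sign when TPM as deposited were tested. BIRC3 fell by 0.25 (edgeR adjusted p = 0.0217). The calls of BIRC2 and BIRC3 were lost without DOX-negative replicate 1 (adjusted p = 0.0817 and 0.114), and with other libraries left out reached 0.176 for BIRC2 and 0.0957 for BIRC3. BIRC2 also lost its call with total counts as library sizes (0.0825), and BIRC2 and BIRC3 both lost theirs with limma on rescaled TPM (0.0966 and 0.0594). BIRC5 was the most abundant of these genes by mean rescaled TPM, at 112 without DOX and 139 with DOX.

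Of 12 death receptor genes, 10 were tested, and 7 of them rose and 1 fell, with a median of 0.25. FAS, a receptor that can feed into BID cleavage, was at 41.0, 35.8 and 43.2 CPM without DOX and 53.4, 77.2 and 59.8 CPM with DOX (log2 fold change 0.67, SE 0.108, edgeR adjusted p = 8.55e-05). The TRAIL receptor genes TNFRSF10A, TNFRSF10B, TNFRSF10C and TNFRSF10D rose by 0.48, 0.32, 1.12 and 0.25, of which the first pair encodes signaling receptors and the other pair encodes decoys. The adaptor kinase gene RIPK1 rose by 0.25, as did CFLAR, an inhibitor of caspase-8 activation, by 0.24. TNFRSF10B, TNFRSF10D, RIPK1 and CFLAR changed sign when TPM as deposited were tested. Leaving out 1 library ended the call of TNFRSF10C (without DOX-negative or DOX-positive replicate 2, adjusted p = 0.0774 and 0.141), of TNFRSF10D (without DOX-negative replicate 1 or 2 or DOX-positive replicate 1, up to 0.148), of RIPK1 (without replicate 1 of either group, up to 0.101) and of CFLAR (without DOX-negative replicate 3 or DOX-positive replicate 2, up to 0.112). With limma on rescaled TPM the calls of TNFRSF10D (adjusted p = 0.0613) and CFLAR (0.160) were lost, and CFLAR also missed the threshold with total counts as library sizes (0.0516). TNFRSF1A, the TNF receptor gene and by mean rescaled TPM the most abundant of the list (190 without DOX and 156 with DOX), fell by 0.26 (edgeR adjusted p = 0.00384). The ligand genes were not tested: FASLG had at most 1 count, and TNFSF10 (TRAIL) had 10, 9 and 6 counts without DOX and 2, 1 and 0 counts with DOX. With no filter TNFSF10 passed the test in the lower direction (log2 fold change -2.92, edgeR adjusted p = 0.0234), on at most 10 counts a library.

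Among 19 partners and regulators of BCL2 proteins, 3 rose and 1 fell, with a median of 0.020. Apart from FOXO3, these were SFN, which rose by 0.50 (edgeR adjusted p = 1.47e-05), and MARCH5, a mitochondrial ubiquitin ligase known to act on MCL1 and NOXA complexes, which rose by 0.25 (edgeR adjusted p = 0.0285) and changed sign with TPM as deposited. The MARCH5 call was lost without replicate 2 of the DOX-negative (adjusted p = 0.150) or DOX-positive (0.110) libraries, and with limma on rescaled TPM (0.0887). YWHAG fell from 264, 261 and 268 CPM to 199, 193 and 194 CPM (log2 fold change -0.43, edgeR adjusted p = 9.91e-06). SFN and YWHAG belong to a family of phosphoprotein-binding adaptors that can hold phosphorylated BAD in the cytosol, and YWHAZ of this family was the most abundant gene of the list by mean rescaled TPM, at 931 without DOX and 883 with DOX. The MCL1 ligase and deubiquitinase genes HUWE1 and USP9X changed by 0.092 and 0.079, and the motor light chain genes DYNLL1 and DYNLL2, partners of BIM and BMF, by -0.17 and 0.22, none of them past the threshold.

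**Figure D4:**
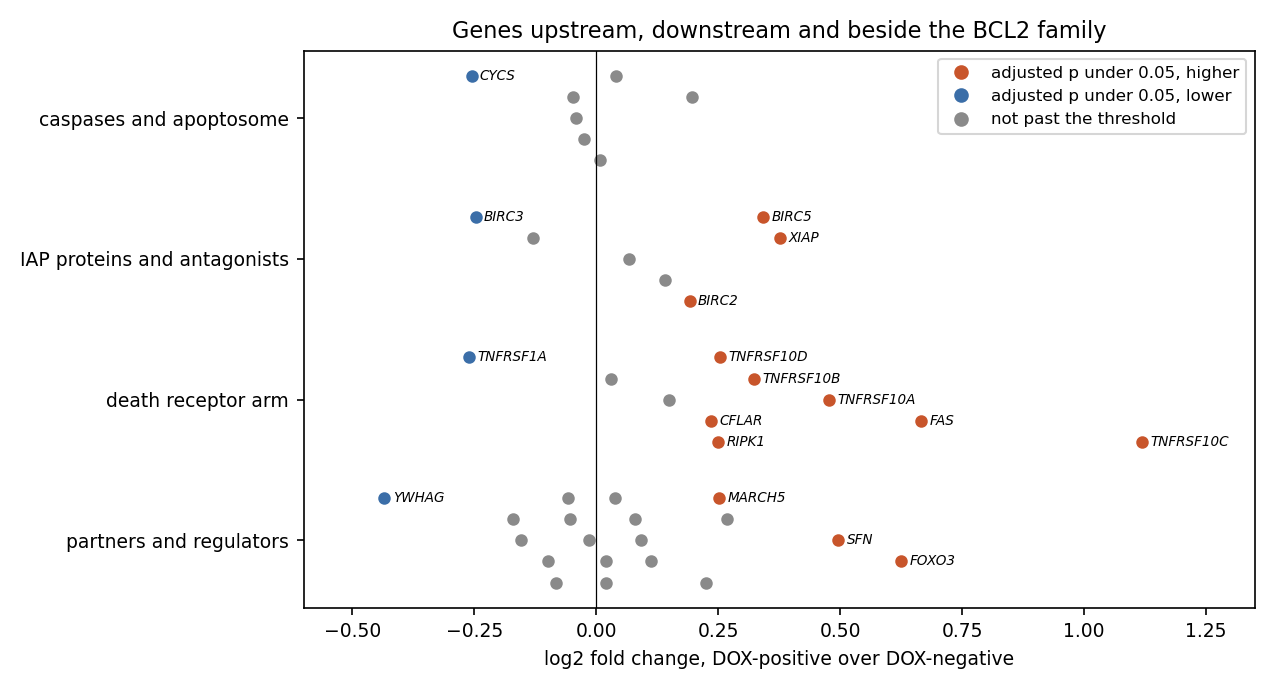
Log2 fold change of DOX-positive over DOX-negative libraries for every tested gene of the 4 lists, with genes past the edgeR threshold colored and named; height within a row only separates points. The death receptor row holds 7 genes that rose and 1 that fell, while most points of the partners row lie near 0; XIAP, BIRC2, BIRC5, TNFRSF10B, TNFRSF10D, RIPK1, CFLAR and MARCH5 changed sign with TPM as deposited.

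**Figure D5:**
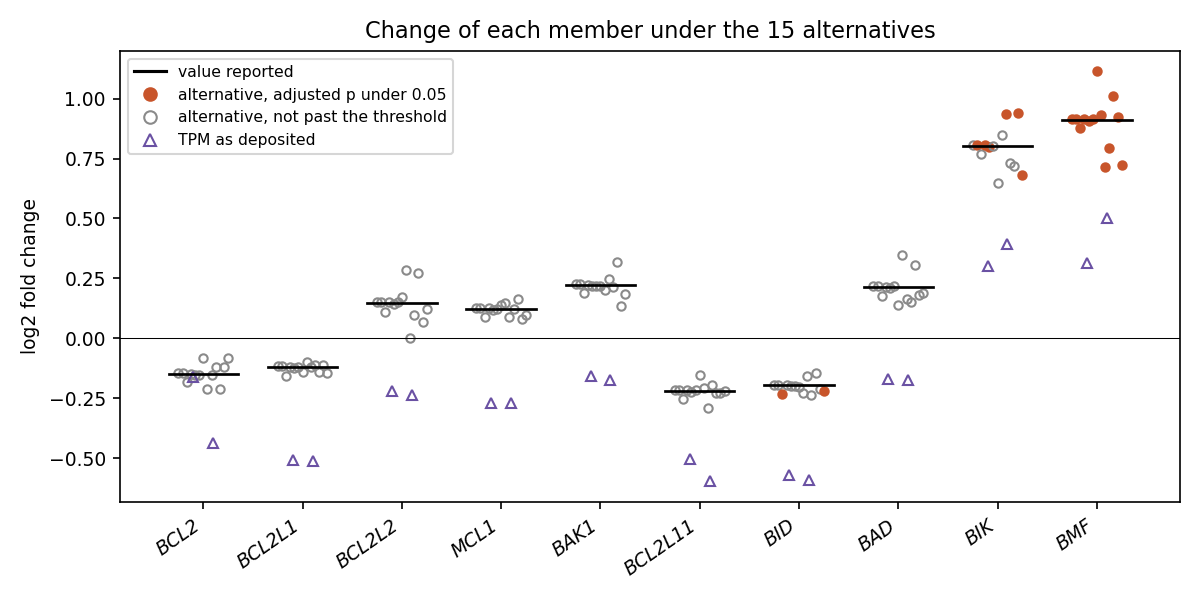
Log2 fold change of each member under the 15 alternative settings (circles, filled where the adjusted p was under 0.05, and triangles for TPM as deposited) with the reported value as a line. BMF is filled in all circles, BIK in 6 of 15 alternatives, and the triangles lie below the line for every member.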

How the data were processed

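Total RNA of triplicate cultures was made into poly(A)-selected stranded libraries (TruSeq Stranded mRNA). The authors deposited whole-number read counts for 28008 genes and, separately, TPM for 25546 genes. The submitters' processing notes name STAR, DESeq2, GRCh38 and hg38; annotation, counting settings and use of strand are not given in the sources used here. Groups were taken from sample titles. Nothing says that the cultures were independent, so p-values measure the spread between these libraries. Pairs of libraries within a group differed beyond sampling noise (chi-square per degree of freedom from 3.76 to 20.2).

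Counts were filtered with filterByExpr, scaled by TMM and tested with edgeR 4.0.16 (R 4.3.3; quasi-likelihood, two-sided, Benjamini-Hochberg over all genes tested, threshold 0.05). SE is the absolute log2 fold change over the square root of F. Intervals are at 95%. CPM use TMM-scaled sizes. The fit was tested on simulated data. DESeq2 1.42.0 and limma 3.58.1, on log2(TPM + 1) or log2(TPM + 0.1), were alternatives, as were other scalings and filters, a replicate block and leaving out each library. Gene positions are from GENCODE (GRCh38). The members, the lists and the rule for named genes (MUC1, all members and other family genes, and, of each list, those past the threshold and the most abundant) were chosen with earlier results of these data known. Genes of a list named without a call were added after values were seen. Some genes of the lists are not reported here.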

Additional observations from a re-analysis of the deposited data

How the results depend on the processing

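The 41 genes followed under 15 alternatives gave 613 values, of which 497 kept direction and side of the threshold, 80 fell short of it, 4 newly passed it and 32 changed sign. The number of genes called over the transcriptome was 443 with limma on log2(TPM + 1) and 408 with limma on log2(TPM + 0.1), both on TPM as deposited, and from 2784 to 3645 with a library left out. These TPM fits shifted the median of all genes to -0.32 and -0.39, and 6.77% and 7.11% of their calls were higher, against 48.8% by edgeR, and 39.3% with total counts as library sizes. Of the members, 1 was called with DESeq2, 1 with the replicate block, 0 with either deposited-TPM fit, and 1 to 2 with a library left out. The cause of the lower member counts with DESeq2 and the block was not tested. All sign changes came from the deposited TPM, with these log2 values at pseudocounts of 1 and 0.1 TPM: BCL2L2 -0.22 and -0.24, MCL1 -0.27 and -0.27, BAK1 -0.16 and -0.17, BAD -0.17 and -0.17, BAX -0.17 and -0.17, BOK -0.022 and -0.017, HRK -0.014 and -0.0034, BNIP3L -0.15 and -0.15, XIAP -0.019 and -0.018, BIRC2 -0.20 and -0.20, BIRC5 -0.054 and -0.054, TNFRSF10B -0.070 and -0.070, TNFRSF10D -0.14 and -0.14, RIPK1 -0.14 and -0.14, CFLAR -0.15 and -0.16, and MARCH5 -0.13 and -0.14. The short noncoding RNAs that fill the deposited TPM differ between libraries, and 3 members (BIK, BMF and BID) were called after rescaling without them.

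The difference of the log2 survival to BH3-only ratio was -0.31 with geometric means and 0.098 with CPM, against 0.0088 as reported. It ran from -0.021 to 0.055 with a library left out. For a wider survival to death ratio the difference was -0.17. That ratio added BCL2A1 and BCL2L10 to the survival side. To the death side it added BBC3, PMAIP1, HRK and the effectors BAX and BOK. BAK1, BCL2L12, BCL2L13, BCL2L14, BCL2L15, BNIP3 and BNIP3L were in neither sum. The difference of the log2 MCL1 to BCL2L1 ratio, an alternative added after seeing the data, ran from 0.19 to 0.31. The replicate block called 3158 genes, 3136 of them also called without it. BIK had an edgeR adjusted p of 0.0658 in it, and BOK, BNIP3, BIRC2, BIRC3, TNFRSF10D and MARCH5 also missed the threshold (0.0541 to 0.0864). Same-numbered libraries did not deviate together over the genes tested (correlations -0.019, -0.095 and -0.027). This cannot show whether same-numbered cultures were paired, since an effect shared by some genes only could be missed. Low counts limit BCL2, BIK, BBC3, HRK, TNFRSF10C, BCL2A1, BCL2L10 and BCL2L15.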
